A study of Rattus norvegicus with 18 samples.

Results

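The control virus libraries of the sORF8 experiment were compared with those of the sORF6 and sORF7 experiments. By their labels these cardiomyocytes received a control virus, not an adenovirus carrying a short open reading frame (sORF). The members were chosen by label alone: the 3 sORF8 control libraries on one side and the 3 sORF6 control and 3 sORF7 control libraries on the other, 9 of the 18 libraries of the series. The other 9 libraries, 3 each with an adenovirus carrying sORF6, sORF7 or sORF8, entered the fit and a second comparison below. All cells were neonatal rat ventricular cardiomyocytes, primary heart muscle cells taken from Sprague-Dawley rats at postnatal day 2 and cleared of part of the other heart cells by a preplating step. All had received phenylephrine (PE), which activates alpha-1 adrenergic receptors and makes cardiomyocytes grow, at 20 µM for 24 h. A PE-free or uninfected library was not analysed here, so every group carries both PE and a virus. The labels give the same infection to all 9 control libraries and do not describe the insert or the preparation of the control virus in any experiment. The experiment and the control virus therefore cannot be told apart, and "sORF8 control" below names the libraries, not an agent.

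Ventricular cardiomyocytes fill most of their volume with myofibrils, in which myosin thick filaments pull on actin thin filaments anchored at the Z-disc, and with mitochondria that burn fatty acids and other fuels for contraction. Chaperones, the proteasome and ubiquitin ligases maintain these proteins, and the transcription factor NRF2 drives genes that detoxify electrophiles and restore reduced thioredoxin and glutathione. Infected cells that sense viral nucleic acid make interferon, which acts through STAT2 and IRF9 on interferon-stimulated genes, whose promoters often hold the interferon-stimulated response element.

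Of 19880 genes in the deposited table, 14870 passed the low-count filter and were tested. Estimated counts summed to 15697177 to 15866402 per library in the sORF8 control, against 17299568 to 17658137 in the 6 other control libraries, so the sORF8 control had the fewest reads. Whether the 3 libraries of each group are separate cultures is not in the labels, so p-values here cover only the variation among these libraries, and that variation can be technical. On the first principal component of the 9 libraries, which held 64.3% of the variance over 10232 genes, the sORF8 control libraries lay between 21.7 and 22.8 and the other 6 between -12.9 and -9.63. The second component, with 10% of the variance, did not follow the labels: replicate 2 of the sORF6 control lay at -8.19 beside replicate 3 of the sORF7 control at -9.32, and replicate 1 of the sORF7 control lay at 4.08 on the side of the other sORF6 control libraries.

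Between the sORF8 control and the mean of the other controls, 6362 genes, 42.8% of those tested, passed edgeR's quasi-likelihood test at a Benjamini-Hochberg adjusted p under 0.05. Of these, 3191 were higher (21.5% of genes tested) and 3171 lower (21.3%), and these shares are the background for every count of list members below. Most differences were small, with a median absolute log2 fold change of 0.197 over all genes tested, and 114 of the higher and 314 of the lower genes differed by at least 2-fold. Against the sORF6 control alone 5709 genes were called (38.4%), and against the sORF7 control alone 5603 (37.7%), comparisons that share the sORF8 control libraries. The libraries did not overlap, 3 against 6, in 5454 genes (36.7%). Set against each other, the sORF7 and sORF6 controls differed in 1 gene (0.00672%) by edgeR, with 1247 genes at an unadjusted p under 0.05 and 36 called by DESeq2, and without replicate 2 of the sORF6 control and replicate 1 of the sORF7 control 1002 genes were called. That 1 gene, named because it stood alone, was Cdkn1a, which encodes the cell cycle inhibitor p21, with 267, 284 and 281 normalised CPM (counts per gene scaled by TMM to a common library size) in the sORF7 control and 238, 238 and 236 in the sORF6 control. Without the same 2 libraries, 6383 genes separated the sORF8 control from the others. Those 2 libraries lay nearer the other group on the second component of these same data. Leaving them out favours a difference between the sORF7 and sORF6 controls, so the 1002 genes are no independent test of one.

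**Figure D1:**
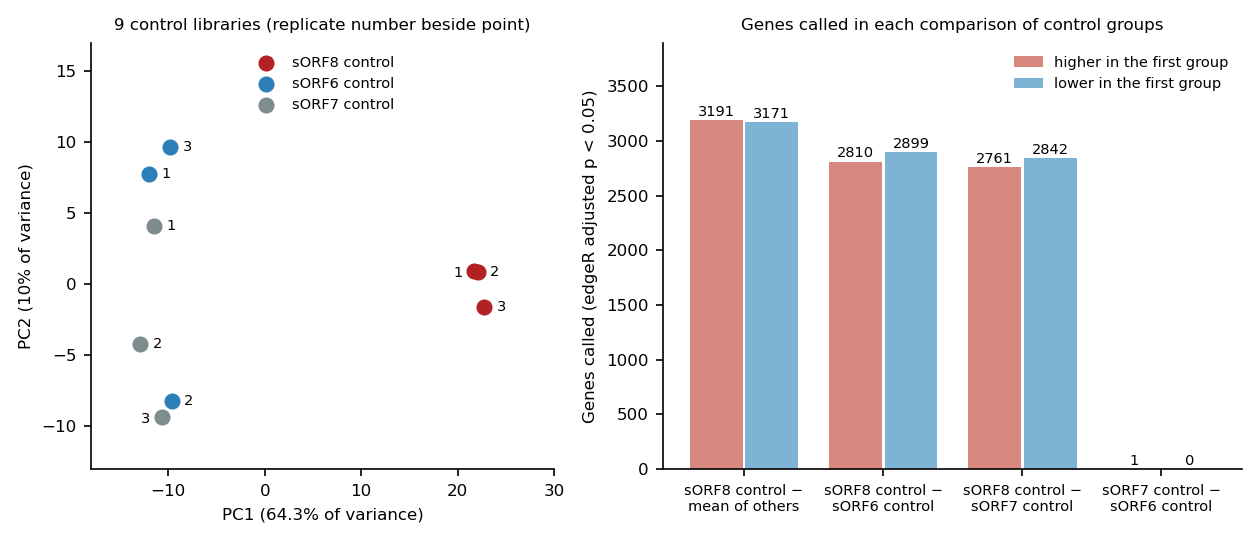
Left, the 9 control libraries on the first 2 principal components of log2 normalised CPM, with the replicate number beside each point; the sORF8 control stands apart at 21.7 to 22.8 on PC1. Right, bars give the number of genes called higher and lower in each of 4 comparisons of control groups, from 3191 and 3171 for the sORF8 control against the other controls to 1 and 0 for the sORF7 control against the sORF6 control.

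The cells of the sORF8 control had lower levels of sarcomere, mitochondrial, fatty acid oxidation, sterol synthesis, cell division and interferon-stimulated genes, and higher levels of NRF2 target, heat shock, ribosomal protein and immediate early genes. Interferon-stimulated genes had the lowest median of the 39 lists that are not cell type markers, -1.48 on the log2 scale, against -0.0043 over all genes tested. Each list is described by how many members passed the test in each direction, beside the 21.5% and 21.3% of all genes. In these sentences a log2 fold change is the sORF8 control minus the mean of the sORF6 and sORF7 controls, and the value after ± is its standard error.

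**Figure D2:**
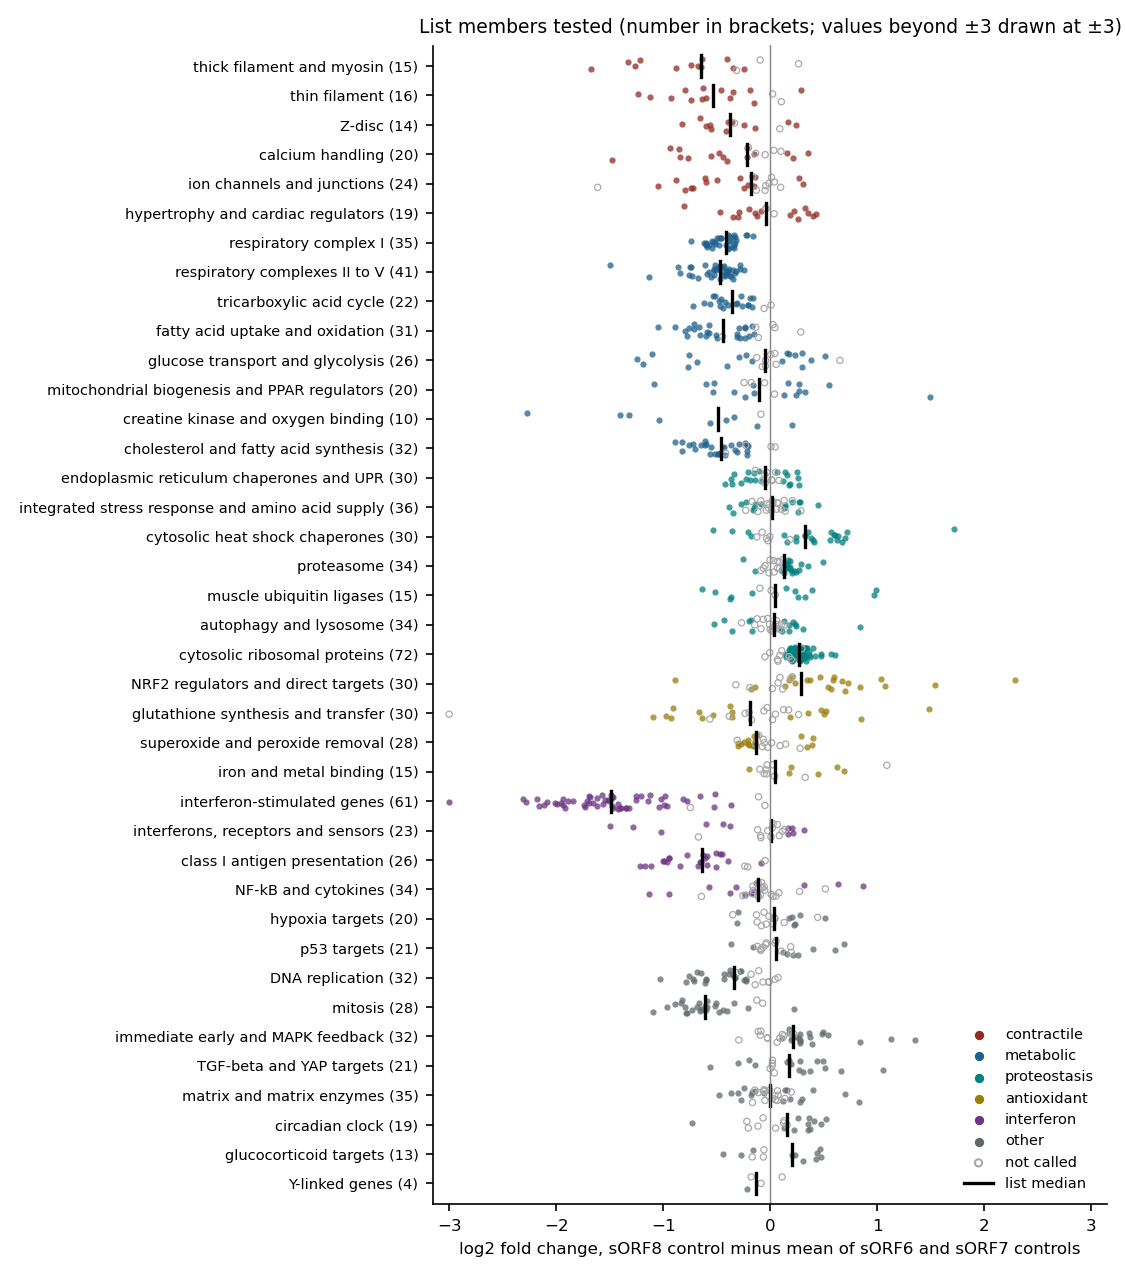
Each point is a gene of 1 of 39 lists, placed by its log2 fold change between the sORF8 control and the mean of the sORF6 and sORF7 controls; filled points passed the edgeR test, open points did not, and black bars are list medians. The interferon-stimulated genes centre on -1.48, respiratory complex I on -0.41 and the NRF2 list on 0.29.

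The cell type named by the labels was checked first. All 8 cardiomyocyte markers were detected in every library, at 24140 to 24400 summed CPM in the sORF8 control, against 36820 to 41270 in the other controls, and 7 of the 8 were lower in the sORF8 control. The exception was Nkx2-5, a cardiac transcription factor (log2 fold change -0.039, edgeR adjusted p = 0.659). In bulk RNA, fewer cells of a type and less RNA per cell cannot be told apart, which holds for every list below. Markers of other cells were present throughout. The 12 fibroblast markers ran at 7873 to 8039 summed CPM in the sORF8 control, against 7945 to 9008 in the other controls, with 5 lower and none higher. Smooth muscle markers ran at 3185 to 3263 summed CPM in the sORF8 control, against 3530 to 3809 in the other controls, endothelial markers at 365 to 379 summed CPM in the sORF8 control, against 359 to 391 in the other controls, and leukocyte markers at 162 to 169.7 summed CPM in the sORF8 control, against 145 to 193 in the other controls. Of 11 smooth muscle and pericyte markers 6 were lower and 2 higher, and of 5 erythroid markers tested 3 were lower and none higher. Of 10 endothelial markers tested 2 were higher, of 12 leukocyte markers 1, of 8 epicardial markers 1 and of 4 Schwann cell markers none, and none of these was lower. The leukocyte marker was C1qa, at a mean of 0.603 normalised CPM in the sORF8 control and 0.220 in the other controls. Its call was lost under 8 of 18 alternative settings. Erythroid genes ran at 1.92 to 2.95 summed CPM in the sORF8 control, against 2.39 to 9.51 in the other controls, with Hba-a1 at 0 in the 3 sORF8 control libraries and in 1 of the 6 others. Y-linked genes ran at 66.3 to 68.3 summed CPM in the sORF8 control, against 65.4 to 72.0 in the other controls, and 1 of 4 tested was called. The part these other cells play in the differences below was not tested.

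Thick filament genes were lower in the sORF8 control in 12 of 15 members and higher in none, with a list median of -0.65. Myl2, the ventricular regulatory myosin light chain (gene 363925, chromosome 12, 39947717 to 39966734, minus strand, Rnor_6.0), had 589, 601 and 600.1 normalised CPM in the sORF8 control, against 1343 to 1716 (median 1471) in the other controls. The sORF8 control libraries all lay below the lowest of the others, 2.51-fold lower on average (log2 fold change -1.33 ± 0.057, edgeR adjusted p = 1.92e-12). Myh6, the fast alpha myosin heavy chain (gene 29556, chromosome 15, 33605653 to 33634249, plus strand), had 2763, 2821 and 2827 normalised CPM in the sORF8 control, against 5826 to 7649 (median 6829) in the others, again without overlap (log2 fold change -1.26 ± 0.066). Myh7, the slow beta heavy chain that phenylephrine is known to raise, had 7870, 8123 and 7913, against 11440 to 14570 (median 12380) (log2 fold change -0.67 ± 0.054). Reads of Myh6 and Myh7 cannot be fully separated here: the genes are near-identical and the table's interval for Myh7 contains that of Myh6. The estimated counts of both heavy chains were lower, by unequal amounts, and how far each gene itself fell cannot be told from them. Myl7, the atrial light chain, fell by 1.67 on the log2 scale, and the M-band proteins Myom1 and Myom2 by 0.88 and 1.22. Members that did not pass the test included Mybphl (-0.31) and Myom3 (0.27).

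The thin filament and the Z-disc followed the same direction. Of 16 thin filament genes 13 were lower and 1 higher (median -0.53), and of 14 Z-disc genes tested 10 were lower and 2 higher (median -0.37). Acta1, the skeletal alpha actin of fetal and hypertrophic heart, had 832, 831 and 891 normalised CPM in the sORF8 control, against 1789 to 2203 (median 1970) in the other controls. That is 2.35-fold lower, with no overlap between libraries (log2 fold change -1.23 ± 0.048, edgeR adjusted p = 7.25e-13). Actc1, the cardiac alpha actin, fell by 0.62 on the log2 scale; the actins are close in sequence, so reads may be shared among them. Tmod1, which caps the pointed end of the thin filament, fell by 0.93, Tpm1, the tropomyosin, by 0.64, Tnni1, the slow fetal troponin I, by 0.74 and Tnni3, the cardiac troponin I, by 0.60. At the Z-disc, Actn2, the alpha-actinin that crosslinks actin, had 1757, 1788 and 1780 normalised CPM in the sORF8 control, against 3005 to 3215 (median 3179) in the others. Ldb3 fell by 0.65, Pdlim3 by 0.60, and Ankrd1, a stretch-responsive titin-binding protein, by 0.56. Des, which encodes the intermediate filament desmin, had 2285, 2236 and 2408 normalised CPM, against 2008 to 2273 (median 2203), overlapping and not called (log2 fold change 0.091 ± 0.038, edgeR adjusted p = 0.0633). Under 8 of 18 alternative settings, DESeq2 among them, Des was called as higher.

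Calcium handling genes were lower in 12 of 20 and higher in 3 (median -0.21). Atp2a2, the SERCA2 pump that returns calcium to the sarcoplasmic reticulum (gene 29693, chromosome 12, 39553143 to 39603326, plus strand), had 1498, 1478 and 1477 normalised CPM in the sORF8 control, against 2475 to 2802 (median 2675) in the others, without overlap (log2 fold change -0.84 ± 0.033, edgeR adjusted p = 7.64e-13). Ryr2, the calcium release channel, had 600.2, 627 and 554, against 855 to 1308 (median 1053), and its spread among the other controls was wide. Casq2, the calcium store protein, fell by 0.76, Hrc, a histidine-rich calcium-binding protein of the same store, by 1.48, Pln, the SERCA inhibitor phospholamban, by 0.41, and Cacna1c, the L-type channel, by 0.48. Of 24 channel and junction genes 13 were lower and 2 higher (median -0.18). Cacna1g, a T-type calcium channel, fell by 1.05, and the potassium channel genes Kcnq1, Kcnh2 and Kcnj11 by 0.79, 0.60 and 0.72. The connexins moved in opposite directions: Gja1, connexin 43 of the working myocardium, had 486, 492 and 476 normalised CPM in the sORF8 control, against 371 to 408 (median 395), while Gja5, connexin 40, had 16.9, 16.9 and 16.1, against 23.8 to 27.6 (median 25.1).

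The regulators of hypertrophy were mixed, with 7 of 19 higher and 9 lower (median -0.039). Nppa, atrial natriuretic peptide, the common marker of the phenylephrine response, had 3783, 3734 and 3671 normalised CPM in the sORF8 control, against 3529 to 4720 (median 4032) in the other controls. The groups overlapped, and the log2 fold change of -0.12 ± 0.047 was near the threshold (edgeR adjusted p = 0.0465) and lost its call under 11 of 18 alternative settings. Nppb, the brain natriuretic peptide, had 869, 872 and 850.1, against 959 to 1238 (median 1042), without overlap (log2 fold change -0.30 ± 0.054). The cardiac transcription factors Gata4 and Tbx20 fell by 0.29 and 0.46, while Mef2c and Hand2 rose by 0.36 and 0.40. Over the 6 cardiac genes set down for every comparison (Nppa, Nppb, Myh7, Myh6, Acta1 and Atp2a2), all were lower in the sORF8 control.

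**Figure D3:**
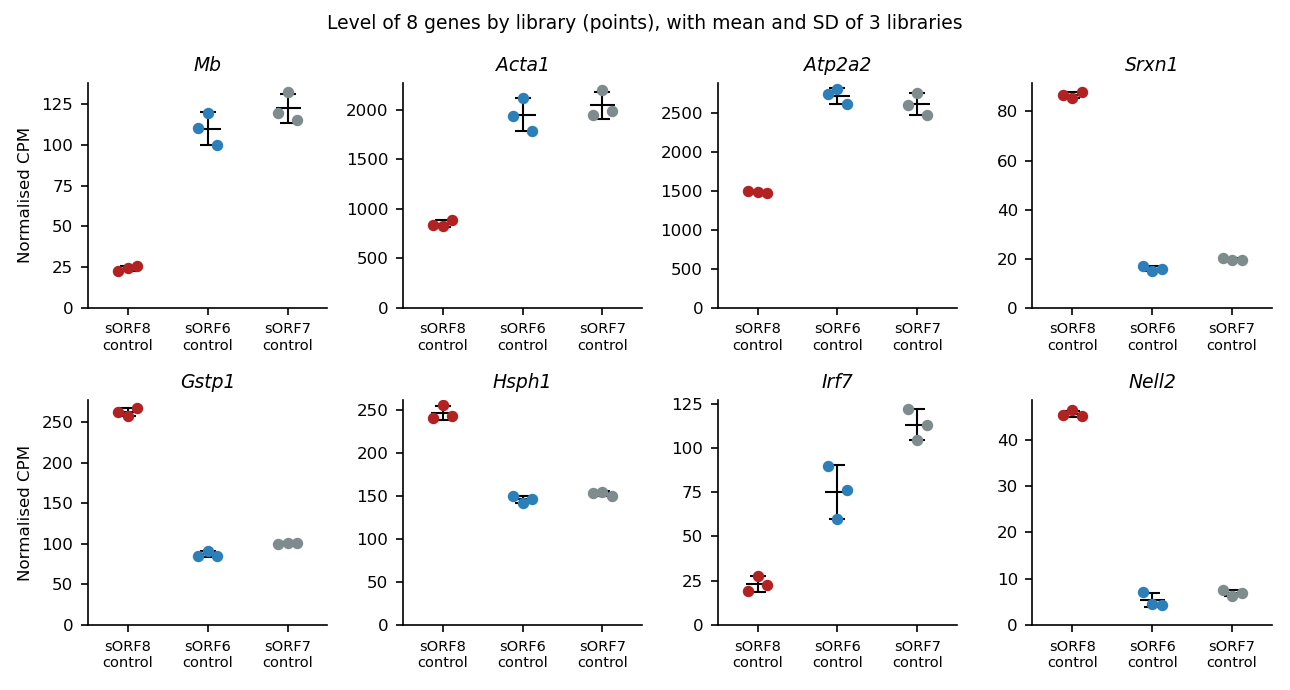
Normalised CPM of 8 genes in each control library (points), with the mean and SD of 3 libraries, the axes starting at 0. Mb, Acta1, Atp2a2 and Irf7 lie lower, and Srxn1, Gstp1, Hsph1 and Nell2 higher, in each sORF8 control library than in any of the other 6.

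Mitochondrial genes of the nucleus were lower as a block. All 35 complex I genes tested were lower in the sORF8 control (median -0.41, range -0.74 to -0.16), as were all 41 genes of complexes II to V (median -0.47). A median of -0.41 means 1.33-fold lower. Ndufb4, an accessory subunit of complex I, had 79.7, 82.4 and 79.1 normalised CPM in the sORF8 control, against 122 to 144 (median 137); Ndufs1, the core iron-sulfur subunit, had 295, 290.5 and 293, against 359.8 to 384 (median 368). Neither gene overlapped between the groups, and their log2 fold changes were -0.74 ± 0.052 and -0.33 ± 0.026. Sdha, the flavoprotein of complex II, fell by 0.52, and Atp5f1b and Atp5f1a, the catalytic core of ATP synthase, by 0.53 and 0.41. The heart isoforms of cytochrome c oxidase differed more widely: Cox8b fell by 1.49, Cox6a2 by 0.44, and Cox7a1, at 1.45 normalised CPM or less in every control library, by 1.13, a call that was lost under 7 of 18 alternatives. Subunits encoded by the mitochondrial genome were not analysed here.

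The fuel pathways that feed these complexes were lower too, while glycolysis was split. Of 22 genes of the tricarboxylic acid cycle 20 were lower and none higher (median -0.36), among them the isocitrate dehydrogenase Idh2 (-0.62) and Mdh1 (-0.72). Of 31 genes of fatty acid uptake and oxidation 25 were lower and none higher (median -0.44). Acaa2, the last enzyme of mitochondrial beta-oxidation, had 26.6, 30.1 and 31.4 normalised CPM in the sORF8 control, against 56.0 to 65.9 (median 60.8) in the others, 2.06-fold lower (log2 fold change -1.04 ± 0.060, edgeR adjusted p = 1.15e-10). Fabp3, the heart fatty acid binding protein, had 212, 206 and 216, against 354 to 424 (median 395); Cpt1b, which commits fatty acids to the mitochondrion, had 95.3, 91.1 and 96.9, against 143 to 170.3 (median 153). In both genes each sORF8 control library lay below all the others. Of 26 glucose transport and glycolysis genes 8 were higher and 10 lower. Some muscle and heart forms were among the lower ones, with Ldhb at 298, 304 and 302 normalised CPM against 599.5 to 709.8 (median 635), Pfkm at a log2 fold change of -0.76 and the insulin-responsive transporter Slc2a4 at -0.77. Hk2, also a muscle form, and Pkm were higher, at 0.51 and 0.38. Slc2a1, the basal glucose transporter, did not pass the test (0.045).

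Mb, myoglobin, the oxygen-binding protein of heart and slow muscle (gene 59108, chromosome 7, 118101633 to 118108864, minus strand), was among the 12 largest falls. It had 22.3, 24.1 and 25.5 normalised CPM in the sORF8 control, against 99.7 to 132 (median 118) in the other controls. The highest sORF8 control library was thus far below the lowest of the others, 4.84-fold lower on average (log2 fold change -2.27 ± 0.066, edgeR adjusted p = 1.00e-14). The creatine kinase genes, which buffer ATP, moved with it. Ckm fell by 1.32 and Ckb by 0.56 on the log2 scale, and the mitochondrial Ckmt2 was 2.64-fold lower. Gatm, the first enzyme of creatine synthesis, fell by 1.04 on the log2 scale. In the list of 10, 8 were lower and 1 higher. Regulators of mitochondrial biogenesis and of peroxisome proliferator-activated receptors were split 8 higher and 8 lower among 20. Ppargc1a, the coactivator PGC-1alpha, fell by 0.33, Ppara, the receptor for fatty acid oxidation in heart, by 0.60, and Rxrg by 1.09. Pparg, the receptor better known from fat cells, had 2.92, 3.47 and 3.89 normalised CPM in the sORF8 control, against 0.741 to 1.63 (median 1.18), and was 2.83-fold higher. Tfb2m, a mitochondrial transcription factor, rose by 0.55 and Esrra by 0.24.

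Cholesterol and fatty acid synthesis genes, targets of SREBP, were lower in 28 of 32 members and higher in none (median -0.45). Fdps, which makes farnesyl diphosphate (gene 83791, chromosome 2, 188403595 to 188413219, minus strand), had 394, 382 and 400.0 normalised CPM in the sORF8 control, against 662 to 743 (median 688) in the others. Scd2, a stearoyl-CoA desaturase (gene 83792, chromosome 1, 264059374 to 264072433, plus strand), had 721, 698 and 702, against 1024 to 1118 (median 1093). Both separated without overlap, with log2 fold changes of -0.82 ± 0.040 and -0.61 ± 0.030 (edgeR adjusted p = 1.36e-11 and 1.17e-11). Fdft1, squalene synthase, fell by 0.72 and Fasn, fatty acid synthase, by 0.29. Of the 32, 21 had a promoter in the RefSeq table, and none held the letters TCACNCCAC used for a sterol response element in the 250 bases before the start, which 1.02% of promoters did.

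Chaperones of the cytosol were higher. In the sORF8 control 20 of 30 heat shock genes rose and 4 fell, with a median of 0.33 and a sum of 15630 to 16020 summed CPM in the sORF8 control, against 11830 to 12690 in the other controls. Hsph1, an HSP110 that recharges HSP70 (gene 288444, chromosome 12, 6322543 to 6341898, minus strand), had 242, 256 and 244 normalised CPM in the sORF8 control, against 142 to 155 (median 150.5) in the others. Hspa8, the constitutive HSP70, had 2827, 2881 and 3032, against 1731 to 1893 (median 1850), and Hsp90ab1, the constitutive HSP90, 2355, 2379 and 2393, against 1575 to 1633 (median 1596). All 3 genes lay higher in each sORF8 control library than in any other control, with log2 fold changes of 0.72 ± 0.029, 0.67 ± 0.028 and 0.57 ± 0.023. Hspa1a, the stress-inducible HSP70, was low and spread, with 3.73, 6.51 and 9.91 normalised CPM, against 0.863 to 3.04 (median 2.38), and its rise of 1.72 ± 0.53 was lost with DESeq2 and without sORF8 control replicate 3. Bag3, a co-chaperone of muscle, rose by 0.33 and the small heat shock protein Hspb1 by 0.33. A heat shock element, read as GAA, TTC and GAA with any 2 bases between them and sought on both strands in the 250 bases before the start, stood in 4 of the 25 heat shock genes with a RefSeq promoter (16%), against 0.392% of all 11467 promoters of tested genes. Hspd1 and Hspe1, both on chromosome 9, are among the 4 and hold it in the same overlapping arrangement on both strands. They may share a site, so the 4 genes need not be 4 separate promoters. The list was chosen as heat shock genes, so the share describes the list and not the difference between the controls. The 2 windows of 90 bases that follow are shown because Hsph1 and Hspa8 had among the smallest p-values of the list and hold the element, in capitals, on the strand opposite to the gene.
Hsph1, GRCr8 chr12:10427278-10427367, plus strand: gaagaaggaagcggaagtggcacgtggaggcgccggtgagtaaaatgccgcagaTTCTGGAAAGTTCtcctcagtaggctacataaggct
Hspa8, GRCr8 chr8:50080414-50080503, plus strand: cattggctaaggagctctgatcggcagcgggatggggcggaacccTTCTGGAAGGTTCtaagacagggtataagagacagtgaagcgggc
A match of letters is a description and not a measured binding site.

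The ribosome moved as a block in the other direction from the mitochondrion. Of 72 entries for cytosolic ribosomal proteins (Rps19 is carried by 2 genes) 63 were higher in the sORF8 control and none lower, with a median of 0.27, 1.21-fold. Rps2 had 1782, 1761 and 1819 normalised CPM in the sORF8 control, against 1201 to 1418 (median 1268) in the others, and Rpl4 1080, 1087 and 1111, against 858 to 929.9 (median 897), without overlap. Ribosomal protein genes have many processed copies in the genome, so single values are uncertain. Proteasome genes were higher in 19 of 34 and lower in 2 (median 0.13), with Psmd7, Psmd11 and Psmb7 at 0.49, 0.36 and 0.29. The list of muscle ubiquitin ligases was split 7 higher and 5 lower among 15. Klhl40, a stabiliser of thin filament proteins, rose by 0.99 and its relative Klhl41 fell by 0.63. The atrophy ligases Fbxo32 and Trim63 had log2 fold changes of 0.049 ± 0.10 and -0.095 ± 0.054 and did not pass the test.

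Stress of the endoplasmic reticulum showed no common direction, with 9 of 30 members higher and 12 lower (median -0.047). Hspa5, the chaperone BiP, had 1323, 1327 and 1327 normalised CPM in the sORF8 control, against 1427 to 1519 (median 1465) in the others, a log2 fold change of -0.15 ± 0.027. Sdf2l1, Manf and Pdia6, secretory pathway chaperones, fell by 0.42, 0.33 and 0.27, while the sensor Atf6 rose by 0.26, a call lost with limma on FPKM, and Xbp1 was not called (-0.031). The integrated stress response was split 8 and 8 among 36. Atf4 rose by 0.14 and Ppp1r15a, which reverses eIF2alpha phosphorylation, by 0.45, whereas the ATF4 targets Asns, Mthfd2 and Pck2 fell by 0.28, 0.35 and 0.38. Ddit3, the factor CHOP, was not called (-0.035). Of 34 autophagy and lysosome genes 10 were higher and 6 lower. Sqstm1, the receptor p62, had 373, 367 and 392 normalised CPM in the sORF8 control, against 191 to 230.1 (median 208), 1.79-fold higher, while Map1lc3a fell by 0.53.

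Sqstm1 is also a known target of NRF2, and the NRF2 list had 19 of 30 members higher and 3 lower in the sORF8 control (median 0.29). Its genes summed to 2869 to 2928 summed CPM in the sORF8 control, against 1948 to 2057 in the other controls. Srxn1, sulfiredoxin, which repairs overoxidised peroxiredoxins (gene 296271, chromosome 3, 147607481 to 147614410, plus strand), had 86.8, 85.4 and 87.9 normalised CPM in the sORF8 control, against 15.0 to 20.2 (median 18.2) in the others. This was 4.90-fold higher, and the lowest sORF8 control library was far above the highest of the others (log2 fold change 2.29 ± 0.052, edgeR adjusted p = 4.81e-16). Txnrd1, cytosolic thioredoxin reductase, had 307, 315 and 332, against 148 to 163 (median 155), and Hmox1, heme oxygenase 1, 67.4, 69.0 and 68.8, against 28.7 to 34.8 (median 33.3). They were 2.05-fold and 2.11-fold higher without overlap (log2 fold changes 1.04 ± 0.029 and 1.08 ± 0.050). Osgin1 rose by 1.54, Mafg, the small MAF partner of NRF2, by 0.73 and Nqo1, the quinone reductase, by 0.59. The mRNA of the factor itself, Nfe2l2, had 170.3, 165 and 169 normalised CPM in the sORF8 control, against 155 to 172 (median 167) in the others, overlapping and not called (edgeR adjusted p = 0.649).

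Glutathione genes were split, also within families, with 7 of 30 higher and 10 lower (median -0.18). Gstp1, the pi-class transferase (gene 24426, chromosome 1, 219262166 to 219294966, plus strand), had 263, 258 and 268 normalised CPM in the sORF8 control, against 84.9 to 102 (median 95.8) in the others, 2.80-fold higher, and had the smallest p-value of the list (log2 fold change 1.49 ± 0.032, edgeR adjusted p = 4.09e-16). Gsr, glutathione reductase, and the microsomal Mgst1 rose by 0.47 and 0.85. Gstm2, of the mu class, had 29.2, 29.6 and 30.1, against 56.9 to 73.5 (median 61.1), a fall of 1.09; Mgst3 fell by 0.64 and the extracellular peroxidase Gpx3 by 0.37. Gstm1, also of the mu class, rose by 0.36 and the peroxidase Gpx1 by 0.19. Transferases of one class are similar in sequence and may share reads. Genes for the removal of superoxide and peroxide were higher in 4 of 28, all of them named here (Prdx1, Sod1, Cat and Prdx6, 0.40, 0.39, 0.35 and 0.29), and lower in 13, which included the mitochondrial Sod2 (-0.25) and Prdx3 (-0.30). Of 15 iron and metal genes 5 were higher and 1 lower. Ftl1, ferritin light chain, rose by 0.45, Fth1, the heavy chain, was not called (0.042), and Slc11a2, an iron importer, fell by 0.20. An antioxidant response element, spelled TGACNNNGC on either strand, stood in the 250 bases before the start of 7 of 27 NRF2 genes with a RefSeq promoter (25.9%) and of 4 of 22 glutathione genes (18.2%), against 12.2% of all promoters. Members with the element lay on both sides: Ephx1 and Ugdh of the NRF2 list fell by 0.18 and 0.14, and of the glutathione genes with it Gstm5 and Gstz1 fell by 0.92 and 0.35 and Gstm7 was not called (-0.38). The NRF2 list was chosen as regulators and targets of that factor, so its share describes the list and not the difference between the controls. The windows of Txnrd1 and Gstp1, the members with the element and a rise of over 2-fold, are given with the element in capitals.
Txnrd1, GRCr8 chr7:22755935-22756024, minus strand: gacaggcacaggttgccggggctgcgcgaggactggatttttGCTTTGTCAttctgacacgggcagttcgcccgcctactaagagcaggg
Gstp1, GRCr8 chr1:210769726-210769815, minus strand: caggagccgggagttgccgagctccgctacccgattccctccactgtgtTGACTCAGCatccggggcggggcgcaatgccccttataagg

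**Figure D4:**
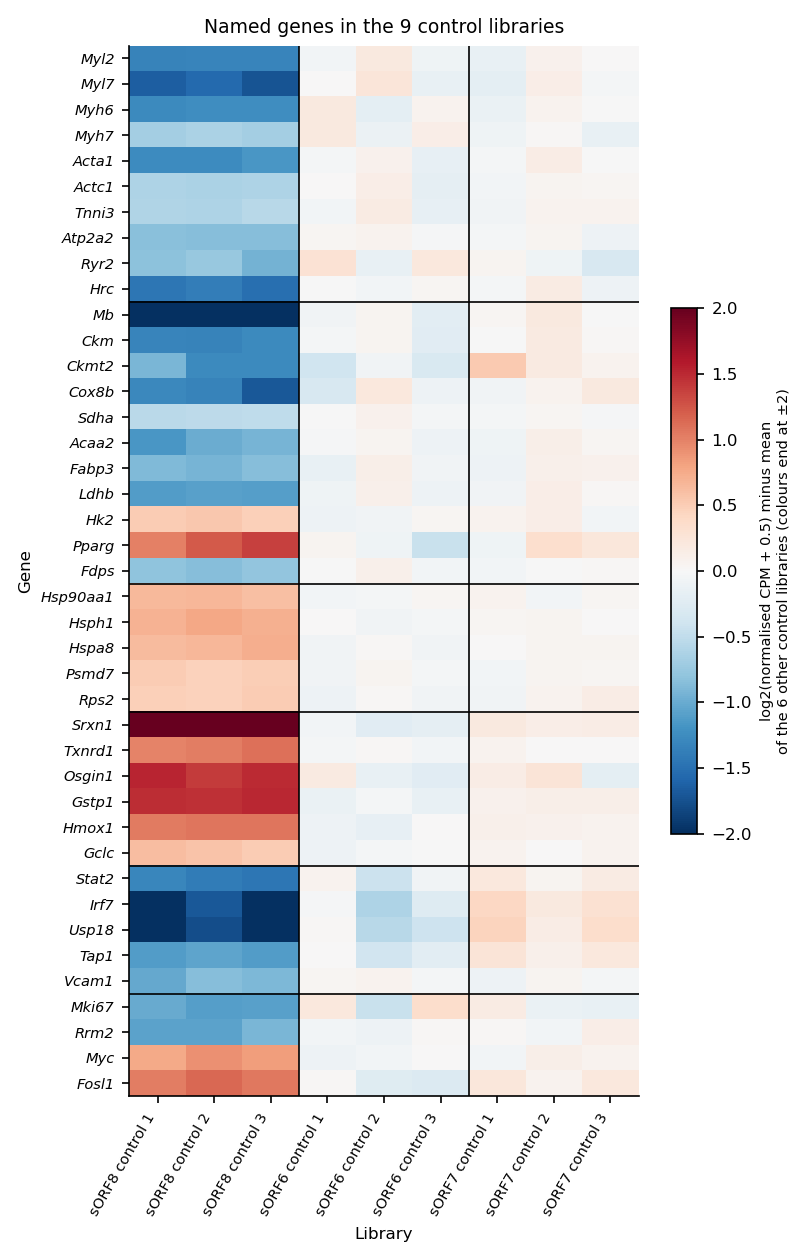
Colours give log2(normalised CPM + 0.5) of named genes in the 9 control libraries, minus the mean of the 6 sORF6 and sORF7 control libraries, red for higher and blue for lower, with colours ending at ±2. The 3 sORF8 control columns at the left are alike, and the interferon genes also vary among the other 6, with sORF6 control replicate 2 the lowest of those for Irf7, Usp18 and Stat2.

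Interferon-stimulated genes were lower in the sORF8 control in 58 of 61 members and higher in none. The list median of -1.48 is 2.80-fold lower, and the genes summed to 1055 to 1194 summed CPM in the sORF8 control, against 2157 to 3707 in the other controls. The other controls were not level for this list, though none of its members was called between them. Its median log2 fold change for the sORF7 control minus the sORF6 control was 0.44, against 0.0026 over all genes tested. For class I antigen presentation that median was 0.23. Irf7, a factor through which interferon drives its own genes further (gene 293624, chromosome 1, 214249388 to 214252909, minus strand), had 19.2, 27.8 and 22.3 normalised CPM in the sORF8 control. It had 89.7, 59.6 and 76.1 in the sORF6 control and 122, 104 and 113 in the sORF7 control. The 3 groups did not overlap for Irf7, the sORF8 control was 3.98-fold lower than the mean of the others (edgeR adjusted p = 4.17e-08), and the log2 fold change was -1.70 against the sORF6 control and -2.29 against the sORF7 control. Usp18, the protease that removes ISG15 from proteins, had 12.4, 19.3 and 14.1, against 46.0 to 91.9 (median 71.5), and Isg15 itself 5.42, 8.62 and 6.27, against 14.7 to 30.6 (median 24.9). Uba7, the enzyme that activates ISG15, fell by 2.31, the largest fall among genes that met the naming rule. The antiviral effectors Mx2, Oas1a and Gbp1 fell by 2.18, 2.11 and 2.19, the RNA sensor Dhx58 by 2.01, Xaf1 by 2.08 and Ifi44 by 1.96. Mx, Oas and Gbp genes have close paralogs, so reads may be shared among them.

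The factors that carry the interferon signal were lower as well. Stat2 had 45.4, 42.4 and 40.8 normalised CPM in the sORF8 control, against 83.3 to 129.8 (median 118) in the others (edgeR adjusted p = 1.44e-09). It was 2.64-fold lower and Irf9 fell by 1.21 on the log2 scale. Cxcl10, an interferon-induced chemokine, fell by 1.54, and Adar, the RNA editing enzyme, by 0.98. The receptors, kinases and sensors upstream were mixed, with 5 of 23 higher and 6 lower (median 0.0086). The receptor subunit Ifnar1 had 75.3, 73.0 and 72.4, against 65.1 to 75.3 (median 69.9), and the factor Irf3 72.8, 71.2 and 67.4, against 62.8 to 76.7 (median 70.6), both overlapping and not called. Mavs, the mitochondrial adaptor of RNA sensors, fell by 0.60, Cgas, the DNA sensor, by 0.38, a call lost without sORF8 control replicate 1, Tlr7, an endosomal RNA receptor, by 1.02 and Nlrc5 by 1.28 with overlapping libraries. Interferon beta, Ifnb1, did not reach the filter, with a summed count of 1 in the 3 sORF8 control libraries and 2 in the 6 others. Class I antigen presentation, which interferon induces, was lower in 23 of 26 and higher in none (median -0.64). The peptide transporter Tap1 had 22.0, 23.2 and 22.2, against 37.3 to 58.4 (median 50.6), and fell by 1.11. The loading factor Tapbp, the immunoproteasome subunits Psmb8 and Psmb9, the activator Psme1 and the light chain B2m fell by 0.94, 0.78, 1.17, 0.68 and 0.39. The class I heavy chains of the RT1 locus are near-identical and their single values are uncertain.

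An interferon-stimulated response element, read as GAAA and GAAA with any 2 bases between them on either strand, stood in the 250 bases before the start of 30 of the 45 interferon-stimulated genes with a RefSeq promoter (66.7%) and of 8 of 23 class I genes (34.8%), against 2.69% of all promoters. The genes of the list were chosen as interferon-stimulated, so the share describes the list and not the difference between the controls. The windows below show the element in capitals, on the strand opposite to the gene in Irf7 and Ifi44 and as 2 overlapping copies on the strand of the gene in Tapbp.
Irf7, GRCr8 chr1:205800044-205800133, minus strand: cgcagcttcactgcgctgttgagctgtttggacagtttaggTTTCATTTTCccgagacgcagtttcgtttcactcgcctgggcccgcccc
Ifi44, GRCr8 chr2:243303841-243303930, minus strand: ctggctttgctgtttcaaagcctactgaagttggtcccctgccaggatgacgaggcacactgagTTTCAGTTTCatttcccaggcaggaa
Tapbp, GRCr8 chr20:4967878-4967967, minus strand: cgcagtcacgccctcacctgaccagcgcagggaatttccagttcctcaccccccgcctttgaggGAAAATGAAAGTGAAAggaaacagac

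NF-kB targets and cytokines did not follow the interferon genes closely, with 3 of 34 higher, 10 lower and 21 not called (median -0.11). Ccl20, a chemokine, had 5.73, 5.89 and 6.40 normalised CPM in the sORF8 control, against 11.8 to 15.8 (median 12.9) in the others, and Vcam1, an adhesion molecule, 14.8, 16.8 and 16.1, against 28.5 to 32.2 (median 30.7). Both were lower without overlap (log2 fold changes -1.13 ± 0.096 and -0.95 ± 0.058). Nfkbiz, a nuclear co-regulator of NF-kB, had 51.5, 55.1 and 53.7, against 24.0 to 32.6 (median 30.4), and rose by 0.87. The chemokine Ccl2 and the cytokine Il6 were not called (0.055 and 0.28).

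Genes of cell division were lower. Of 28 mitotic genes 25 fell and 1 rose (median -0.61), and of 32 DNA replication genes 23 fell and none rose (median -0.34). Mki67, the proliferation marker, had 74.5, 69.9 and 70.8 normalised CPM in the sORF8 control, against 110.5 to 193 (median 152) in the others, a wide range that still did not reach down to the sORF8 control (log2 fold change -1.09 ± 0.12, edgeR adjusted p = 7.49e-07). Top2a, Ect2 and Ccna2 fell by 0.97, 0.88 and 0.73, and Rrm2, the ribonucleotide reductase subunit, had 55.6, 55.8 and 62.0, against 110.0 to 129 (median 117). Growth signal genes moved the other way. Of 32 immediate early and MAPK feedback genes 20 rose and none fell (median 0.21). Fosl1, an AP-1 subunit, had 15.2, 16.6 and 15.6, against 5.87 to 8.47 (median 7.44), and rose by 1.13; Myc rose by 0.84 and Klf6 by 0.49, while Fos and Egr1 were not called (0.11 and 0.091). Of 21 targets of TGF-beta and YAP 12 rose and 4 fell. The 21 genes together ran lower, at 10910 to 11010 summed CPM in the sORF8 control, against 12510 to 13690 in the other controls. Inhba, the activin A subunit, had 173, 169 and 170.3 normalised CPM in the sORF8 control, against a mean of 82.0 ± 7.57 (SD, n = 6) in the others.

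The largest single changes lay partly outside the lists. Among genes that met the naming rule, 2062 higher and 2125 lower, the 12 largest rises were Nell2, Srxn1, Nrcam, Bpifb1, Spock1, Mmp16, Elavl4, Rasd1, Osgin1, Ccdc36, Gstp1 and Fancc. Nell2, a secreted glycoprotein known from neurons (gene 81734, chromosome 7, 136526497 to 136853820, minus strand), had 45.2, 46.4 and 45.1 normalised CPM in the sORF8 control, against 4.39 to 7.60 (median 6.56) in the others. That is 7.47-fold higher, with log2 fold changes of 3.08 against the sORF6 control and 2.72 against the sORF7 control (log2 fold change against both 2.90 ± 0.10, edgeR adjusted p = 2.08e-13). Nrcam, a neuronal adhesion molecule, had 5.17, 7.13 and 7.27, against 1.04 to 2.32 (median 1.55), and Mmp16, a membrane-bound matrix metalloproteinase, 62.3, 68.1 and 70.7, against 18.6 to 23.8 (median 20.5). In each of these genes the 3 sORF8 control libraries stood above the other 6. Rasd1, a small GTPase induced by dexamethasone, rose by 1.56, Elavl4, a neuronal RNA-binding protein, by 1.58, Spock1, a secreted proteoglycan, by 1.72, Bpifb1 by 1.77, Ccdc36 by 1.53 and Fancc, of the Fanconi anaemia repair complex, by 1.42. Of the 12 largest falls, Uba7, Gbp1, Mx2, Usp18, Oas1a, Xaf1, Dhx58, Irf7 and Ifi44 are interferon-stimulated. The others were Mb, Dgkb, a diacylglycerol kinase (2.06 lower on the log2 scale), and MGC108823 (2.15 lower), whose relation to interferon was not assessed here.

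The sORF8 virus libraries were then compared with the sORF6 and sORF7 virus libraries, which share no library with the comparison of controls. They differ in the sORF as well as in the experiment, so the sORF and the experiment cannot be told apart there. Of 14870 genes, 4704 were called (31.6%), 2342 higher (15.7%) and 2362 lower (15.9%). Called in both comparisons with the same sign were 3878 genes, 60.96% of those called among controls and 82.44% of those called among sORF viruses, and 23 were called with opposite signs. Across the genes tested, which are not independent replicates, the log2 fold changes of the 2 comparisons had a Spearman rho of 0.671. Interferon-stimulated genes were lower among the sORF viruses in 56 of 61 (median -0.85, against -1.48 among controls), complex I in 34 of 35 (-0.33, against -0.41) and thick filament genes in 10 of 15 (-0.40, against -0.65). NRF2 genes were higher in 18 of 30 (0.23, against 0.29), heat shock genes in 17 of 30 and ribosomal protein genes in 38 of 72.

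The difference between the experiments was itself different among controls and among sORF viruses for 555 genes (3.73%) by edgeR's test of the interaction, with 196 more positive (1.32%) and 359 more negative (2.41%) among controls. Of the 32 cholesterol and fatty acid synthesis genes 23 were among them: 11 were lower and 1 higher among the sORF viruses, against 28 lower and none higher among controls. Of 34 NF-kB and cytokine genes 14 were among them, with 17 higher and 2 lower among the sORF viruses (median 0.25), against 3 and 10 among controls (-0.11). For endoplasmic reticulum chaperones the counts were 11 higher and 1 lower, against 9 and 12, and 8 of 30 passed the interaction test. Interferon-stimulated genes contributed 18 of 61 and thick filament genes 8 of 15. Complex I contributed 1 of 35 and class I antigen presentation none of 26. Myh6 had a log2 fold change of -1.26 among controls and -0.40 among sORF viruses, Nell2 2.90 and 1.43, and Mb -2.27 and -2.07. The interaction is by its arithmetic also the mean response to the sORF6 and sORF7 viruses minus the response to the sORF8 virus, each against its own control. An effect of any sORF therefore enters it and cannot be told apart there from a difference between experiments.

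**Figure D5:**
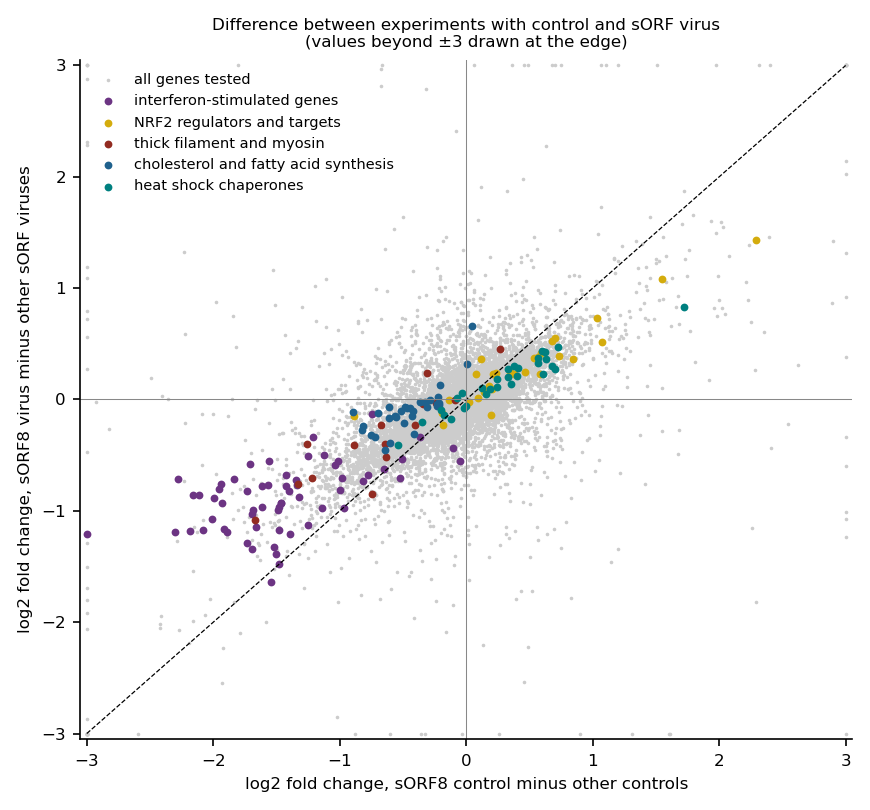
Each point is a gene, placed by its log2 fold change between the sORF8 control and the other controls (horizontal) and between the sORF8 virus and the other sORF viruses (vertical), with 5 lists coloured and the line of equal values dashed. The interferon-stimulated genes lie at the lower left (medians -1.48 and -0.85), and the sterol and fatty acid synthesis genes lie mostly left of 0 and near 0 on the vertical axis (medians -0.45 and -0.088).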

How the data were processed

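RNA of 18 libraries in 6 groups of 3 was sequenced on a BGIseq instrument after Trizol extraction, per the labels' protocols; group and replicate number were read from the sample titles. The authors deposited 1 table of 19880 protein-coding genes with an estimated count and an FPKM value (fragments scaled to transcript length and library size) per gene and library. The submitters' processing notes name HISAT2 2.0.4, RSEM 1.2.12 and DESeq2 1.4.5, without roles, and the build Rnor_6.0; no source used here says whether strand was used in counting. The authors' estimated counts divide reads among similar transcripts, so near-identical genes are uncertain. The deposited FPKM served only in 2 alternatives. Mitochondrially encoded genes, viral transcripts and non-coding RNA were not analysed here.

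After rounding of the counts to integers, tests were run in edgeR 4.0.16 in R 4.3.3. filterByExpr kept 14870 genes, libraries were scaled by TMM, and the quasi-likelihood fit gave each of the 6 groups its own mean over 18 libraries, with 12 residual degrees of freedom; the common biological coefficient of variation was 6.90%. The sORF8 control was set against the mean of the other control groups, against each alone, and the same contrast among sORF viruses was tested alone and as an interaction. P-values are two-sided and adjusted by Benjamini and Hochberg over all genes tested, with calls under 0.05. Depth of 15697177 to 17658137 counts per library limits genes at a few counts. Across genes the log2 fold change had a Spearman rho of 0.0427 with transcript length. The scripts were tested on simulated counts. Alternatives used limma 3.58.1 on log2(FPKM + 1) and log2(FPKM + 0.1), DESeq2 1.42.0 and its size factors, no filter, a replicate block, a length correction, only the groups compared, and each library left out.

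The members, the 47 gene lists and the rules were chosen with earlier results of these data known. Named genes were the 12 largest rises and falls among genes called, of the same sign against each other control, without overlap, with a gene symbol and an average log2 CPM no lower than 1; the 3 smallest p-values of each list with up to 3 members chosen by role; and 6 cardiac genes. Others named, such as members that did not pass, were chosen after their values were seen. Some genes that the rule names are not reported here. Promoters are RefSeq's, build GRCr8, from 250 bases before each start, matched by symbol for 11467 genes. Same-numbered control libraries of different experiments did not deviate together (correlations of -0.194 to 0.095), so the main fit used no pairing. Pairing of an sORF virus library with a control library of its own experiment was not examined this way.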

Additional observations from a re-analysis of the deposited data

Results flagged for a closer look

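The genes below, a part of the 555 that passed, are those picked by the rule for named genes. They stood out because the difference between the sORF8 experiment and the other experiments was not the same among control libraries as among sORF virus libraries, by edgeR's interaction test at an adjusted p under 0.05. The value in brackets is the log2 fold change among controls minus that among sORF viruses. A negative value means only that the log2 fold change was lower among controls than among sORF viruses. It can come from either comparison, and no explanation was tested. The same value is the mean response to the sORF6 and sORF7 viruses minus that to the sORF8 virus, each against its own control. Effects of the sORFs and of the experiments cannot be told apart in it.

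Among interferon and cytokine genes the values were all negative: Usp18 (-1.30), Oas1a (-1.25), Ifi44 (-1.15), Uba7 (-1.11), Irf7 (-1.11), Irf9 (-0.87), Ccl2 (-0.81), Vcam1 (-0.58), Stat2 (-0.57), Ccl20 (-0.57) and Nfkbia (-0.42). Irf9 had log2 fold changes of -1.21 among controls and -0.34 among sORF viruses. Ccl2, a chemokine that attracts monocytes, had log2 fold changes of 0.055 among controls and 0.87 among sORF viruses, and the macrophage integrin Itgam (-0.78) had -0.22 and 0.56.

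Among contractile genes the values were Myh6 (-0.86), Myl7 (-0.59), Myl2 (-0.57), Myom2 (-0.51), Hrc (-0.50), Myom1 (-0.48), Cacna1g (-0.46), Myh7 (-0.45), Tbx20 (-0.38), Tmod1 (-0.37), Nppa (-0.37), Ankrd1 (-0.35), Nppb (-0.35), Actn2 (-0.35), Csrp3 (-0.32), Pdlim3 (-0.30), Tnni1 (-0.30), Atp2a2 (-0.30), Ldb3 (-0.29), Actc1 (-0.27), Casq2 (-0.25), Kcnh2 (-0.24), Gata4 (-0.23) and Tpm1 (-0.19), with Acta2 (-0.25) of smooth muscle, against Gja1 (0.24) in the other direction. Nppa had a log2 fold change of -0.12 among controls and 0.25 among sORF viruses, opposite in sign.

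Metabolic genes gave Fdps (-0.58), Scd2 (-0.54), Fdft1 (-0.39), Ldhb (-0.32), Fasn (-0.28), Ckb (-0.27), Fabp3 (-0.27), Mdh1 (-0.26), Pfkm (-0.21), Atp5f1b (-0.20), Sdha (-0.16), Atp5f1a (-0.15), Ndufs1 (-0.13) and, in the other direction, Pkm (0.15). Scd2 fell by 0.61 among controls and had -0.068 among sORF viruses. Genes of cell division and hypoxia gave Rrm2 (-0.46), Top2a (-0.42), Mcm5 (-0.40) and Egln3 (-0.22).

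Proteostasis genes gave Sqstm1 (0.49), Hspa8 (0.37), Ddit3 (0.35), Ppp1r15a (0.29), Hsph1 (0.25), Hsp90ab1 (0.24), Psmd7 (0.23), Rps2 (0.23) and Lamp1 (0.17), while the secretory chaperones Sdf2l1 (-0.44), Hspa5 (-0.25) and Pdia6 (-0.19) were negative. Antioxidant and iron genes gave Srxn1 (0.86), Gstp1 (0.76), Hmox1 (0.56), Nqo1 (0.36), Mafg (0.34), Txnrd1 (0.31) and Ftl1 (0.25), against Tfrc (-0.20) and Slc11a2 (-0.20). Gstm1 (0.55), Taldo1 (0.22) and Gclc (0.19) of the same lists, outside the rule, passed as well. Srxn1 rose in both comparisons, by 2.29 among controls and 1.44 among sORF viruses.

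The remaining values of genes the rule picked were Nell2 (1.48), Nrcam (1.21), Bpifb1 (1.15), Mmp16 (0.74), Fosl1 (0.70), Rasd1 (0.65), Adamts1 (0.40), Inhba (0.36), Myc (0.31), Mdm2 (0.28), Klf6 (0.27), Nfil3 (0.26), Glul (0.25) and Perp (0.22).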

How the results depend on the processing

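The 6362 genes called between the sORF8 control and the other controls ranged from 5679 with only the groups compared to 6721 with the length correction, and from 5472 to 6398 with 1 library left out. The 1 gene between the sORF7 and sORF6 controls became 36 with DESeq2, 2 with limma at either pseudocount, 0 without the filter, 0 with only the groups compared, 6 with the length correction, 0 to 71 with 1 library left out (71 without sORF6 control replicate 2) and 1002 without that library and sORF7 control replicate 1. The libraries left out for the count of 1002 lay nearer the other group in these same data, so that count depends on the choice. The cause of these changes was not tested. The 555 interaction genes became 885 with the length correction and 354 to 705 with 1 library left out, with 354 without sORF8 virus replicate 2 and 364 without its replicate 1. With the replicate number as a block 6292 genes were called in the comparison of the sORF8 control and the other controls, 547 for the interaction and 0 between the sORF7 and sORF6 controls. The block changed no other count by over 1.5 times. Of 198 named genes called, 188 kept call and direction under every alternative run, none reversed, and 10 lost the call at least once (Nppa, Nfkbia, Cox7a1, Hspa1a, Cgas, C1qa, Atf6, Dcn, Slc4a1 and Col1a2). Of 25 not called, 9 were called under at least 1. Many of the named genes were picked for a small p-value or a large change in the main fit. These shares therefore do not stand for all genes called. The median of 40 of 47 lists kept its sign throughout; the exceptions, all with medians near 0, were endothelium, epicardium, leukocyte, Schwann cell, glycolysis, matrix and interferon receptor lists. Genes at a few counts, such as globins and Ifnb1, are limited by depth.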

Other observations

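Lists outside the main themes gave these counts in the sORF8 control against the other controls, beside 21.5% higher and 21.3% lower over all genes tested. Clock genes were higher in 10 of 19 and lower in 1 (median 0.16). Tef, a clock output factor, had 71.6, 72.5 and 67.2 normalised CPM in the sORF8 control, against 45.7 to 51.9 (median 49.1) in the others, and Per1, of the negative limb, 36.2, 37.8 and 40.9, against 24.4 to 29.0 (median 28.3). Both were higher in each sORF8 control library than in any other control. Bhlhe40 and Nfil3, repressors in the clock, rose by 0.37 and 0.35. Times of harvest are not given in the labels, and their part was not tested. Glucocorticoid targets were higher in 7 of 13 and lower in 3. Errfi1, a feedback inhibitor of EGFR, rose by 0.47 and Glul, glutamine synthetase, by 0.43.

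Hypoxia targets were higher in 6 of 20 and lower in 2, with Egln3 and Mxi1 the lower ones (-0.30 and -0.31). Targets of p53 were higher in 7 of 21 and lower in 2. Tigar, a fructose bisphosphatase, had 23.5, 24.5 and 25.4 normalised CPM in the sORF8 control, against a mean of 15.2 ± 1.10 (SD, n = 6) in the others, and Perp and Mdm2 rose by 0.61 and 0.40. Matrix genes were split 9 and 9 among 35. Adamts1, a secreted protease, had 108, 102 and 107, against 55.5 to 63.5 (median 59.3), and Col18a1, a basement membrane collagen, 358, 364 and 359, against 199 to 237 (median 226). Timp2, an inhibitor of metalloproteinases, fell by 0.37, and Col3a1 and Col1a2, fibrillar collagens, by 0.18 and 0.14. The smooth muscle and pericyte list, with 6 of 11 lower and 2 higher, had Acta2 lower by 0.53 and Mcam higher by 0.44.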
